A study of Mus musculus with 6 samples.

Results

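The genes described here belong to 3 families in EO771 cells, a mouse mammary carcinoma line: the Kctd, Klhl and cullin genes. Many of their proteins are components of ubiquitin ligases. Members were chosen by their gene symbol, and a value is given where the 6 read counts of a gene sum to at least 60. That sum takes no account of the groups, but the families were proposed with earlier results of these data known. Of 49523 gene symbols in the table, 67 matched, 22 of them Kctd, 37 Klhl and 8 cullin genes. Of these, 49 had a value, 18 Kctd, 23 Klhl and 8 cullin genes, and all 49 passed the filter on low counts, while none of the other 18 did. RNA sequencing compared 3 libraries of cells labelled cancer stem cells (CSC) with 3 libraries of cells labelled as not being cancer stem cells (non-CSC), with no treatment, time or genotype given for either group. The labels give neither the way in which CSC and non-CSC were separated nor the origin of the replicates as separate cultures. The p-values therefore reflect the spread among these 6 libraries, which may be technical.

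Cullins are long scaffold proteins. One end binds a RING protein that recruits a ubiquitin-charged enzyme, and the other end binds an adaptor that holds the protein to be marked with ubiquitin. Attachment of NEDD8 to the cullin switches the ligase on, and the COP9 signalosome removes it. Cul3 uses proteins with a BTB domain as adaptors, and Klhl proteins (BTB and Kelch domains) and many Kctd proteins are of this kind. Where a substrate gene is set beside an adaptor below, its value is an RNA level, and turnover of the protein was not tested.

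The libraries held 27099879 to 28205651 counts in CSC and 32204112 to 35971131 in non-CSC. Levels are given as CPM, read counts scaled to a common library total, with TMM factors, so 3 counts equal 0.103 to 0.109 CPM in CSC and 0.0849 to 0.0956 CPM in non-CSC. The epithelial markers summed to 4107 to 4294 CPM in CSC and 3348 to 3500 CPM in non-CSC. Of 9 tested, 5 were called higher and 2 lower in CSC, beside 33.4% and 33.1% of all genes tested. Krt7 averaged 1057 CPM in CSC and 501 CPM in non-CSC, Epcam 10.3 CPM in CSC and 21.3 CPM in non-CSC, and Krt5 1.01 CPM in CSC and 3.64 CPM in non-CSC, while Cdh1 lay below 1 CPM in both groups. Summed levels of 5 fibroblast markers were 1196 to 1243 CPM in CSC and 555 to 589 CPM in non-CSC, nearly all of it Dcn, with Lum at 0 counts and Col3a1 at 12. Summed levels of 6 leukocyte markers were at most 28.4 CPM in any library, with Adgre1 and Cd3e at 0 counts and Ptprc at 22. The sum covers opposite changes, since Csf1r averaged 8.06 CPM in CSC and 1.85 CPM in non-CSC (log2 fold change 2.12, adjusted p = 4.8e-14) and Cd68 averaged 17.8 CPM in CSC and 25.4 CPM in non-CSC (log2 fold change -0.51, adjusted p = 6.04e-08). The endothelial, skeletal muscle and neuronal lists reached at most 3.04 CPM in any library, with 1 gene tested in each. Of these, Ttn (338 counts in all) and Map2 (53 counts) were called higher in CSC, by 1.19 and 2.90 on the log2 scale. Pecam1 (87 counts) was called lower, by 0.81. The part of other cell types in the results below was not tested. In bulk samples, fewer cells that express a gene and less RNA per cell cannot be told apart.

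Among the 18 Kctd genes, 13 (72.2%) were lower and 2 (11.1%) higher in CSC in the quasi-likelihood test of edgeR with a threshold of 0.05 on the adjusted p. Over all 17630 genes tested, 33.1% were called lower and 33.4% higher. Of the 23 Klhl genes, 9 were called higher (39.1%), 8 lower (34.8%) and 6 in neither direction, which is near the shares for all genes. Of the 8 cullin genes, 4 were higher and 4 lower. The median log2 fold change (CSC over non-CSC) was -0.52 for the Kctd genes, 0.03 for the Klhl genes and -0.01 for the cullin genes, beside 0.01 for all genes tested. Changes of at least 2-fold were called for 3 members higher (Klhl30, Kctd14 and Klhl36) and 4 lower (Kctd4, Klhl3, Kctd13 and Kctd15), where 8.01% and 4.09% of all genes tested were called so. These counts describe lists proposed with results in view, and no test of a list was made. Up to 6 Kctd and 6 Klhl genes per direction were named below on condition that their groups do not overlap. For them the lack of overlap follows from the choice and is no further support. The share of all genes tested with such groups is not given here.

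**Figure D1:**
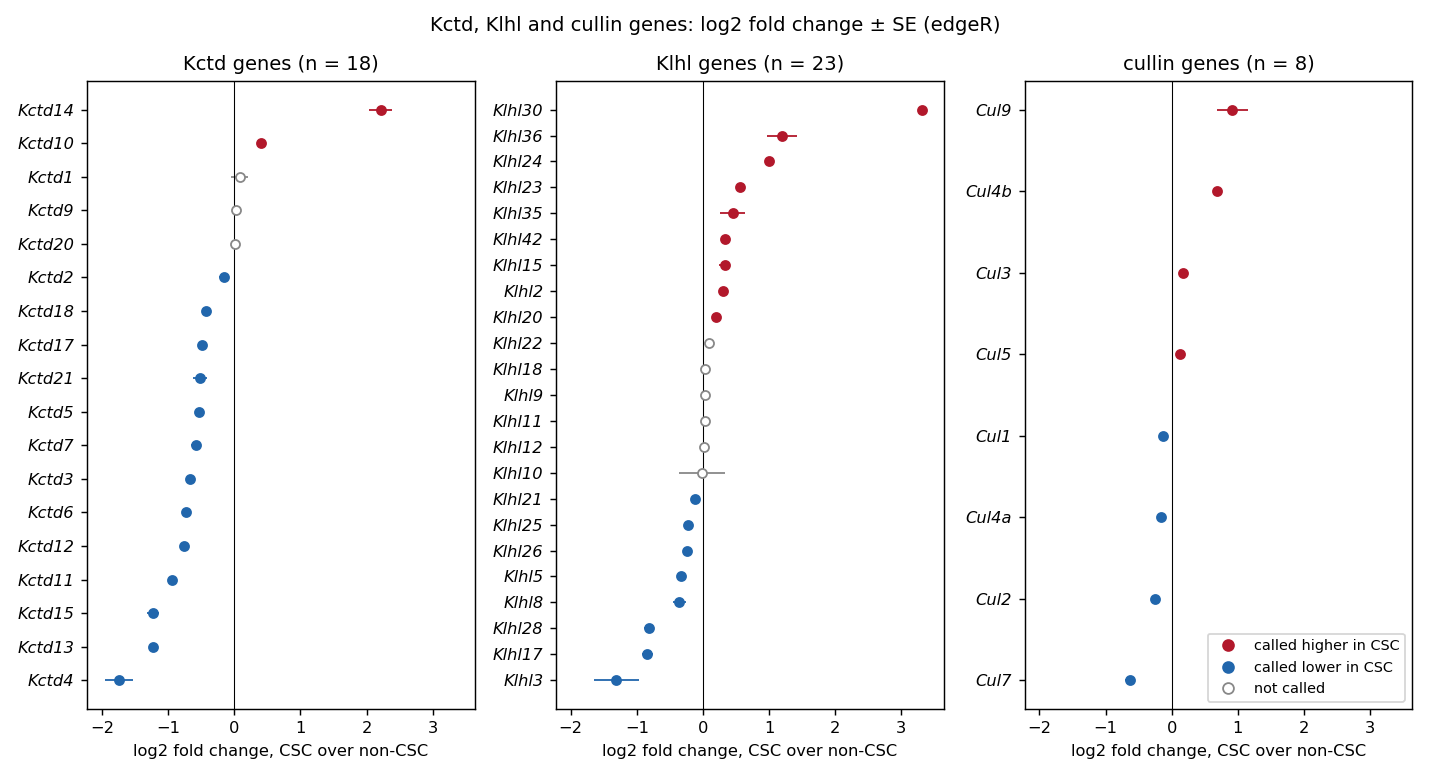
Log2 fold change (CSC over non-CSC, x axis) with its standard error for each of the 49 genes with a value, in 3 panels by family. Red points were called higher in CSC, blue points lower and open grey points were not called; 13 of 18 Kctd points are blue, while the Klhl and cullin points lie on both sides of 0.

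The sequences just upstream of 4 of these genes are shown because they belong to 3 Kctd genes that were lower in CSC and to Cul4b, which was higher, and because the windows hold no annotated exon base. They are RefSeq promoter windows of GRCm38.p6, 5′ to 3′ on the strand of the gene, kept upstream of the gene's start. Capitals mark matches on either strand to any of 5 motifs searched, the GC box GGGCGG, the CCAAT box CCAAT, the E-box CACGTG, the cyclic AMP element TGACGTCA and the TATA box TATAAA. Kctd13 lies at chr7:126928629-126928839 on the plus strand, Kctd12 at chr14:102982638-102982887, Kctd3 at chr1:189007899-189008090 and Cul4b at chrX:38576197-38576446, the last 3 on the minus strand.
Kctd13: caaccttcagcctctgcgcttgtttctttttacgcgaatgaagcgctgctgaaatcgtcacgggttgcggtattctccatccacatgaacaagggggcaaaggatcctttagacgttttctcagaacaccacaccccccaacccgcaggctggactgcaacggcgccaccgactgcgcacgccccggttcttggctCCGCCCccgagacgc
Kctd12: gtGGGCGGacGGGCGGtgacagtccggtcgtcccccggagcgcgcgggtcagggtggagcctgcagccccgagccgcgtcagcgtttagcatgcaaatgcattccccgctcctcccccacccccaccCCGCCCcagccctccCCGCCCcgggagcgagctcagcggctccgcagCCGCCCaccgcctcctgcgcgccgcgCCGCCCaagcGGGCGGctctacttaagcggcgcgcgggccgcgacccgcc
Kctd3: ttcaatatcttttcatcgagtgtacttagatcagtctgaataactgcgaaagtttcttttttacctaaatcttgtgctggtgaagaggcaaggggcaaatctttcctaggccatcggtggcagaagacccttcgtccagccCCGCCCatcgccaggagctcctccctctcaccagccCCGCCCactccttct
Cul4b: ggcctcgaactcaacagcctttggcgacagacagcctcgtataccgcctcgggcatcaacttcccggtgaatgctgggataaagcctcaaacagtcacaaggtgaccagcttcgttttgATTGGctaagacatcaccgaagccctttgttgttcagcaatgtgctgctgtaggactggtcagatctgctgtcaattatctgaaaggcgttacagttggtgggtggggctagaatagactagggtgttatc

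The Kctd windows hold GC boxes, 1 for Kctd13, 7 for Kctd12 and 2 for Kctd3, and the Cul4b window holds a single CCAAT box and no GC box. These 4 windows were picked, and a link of a motif with direction was not tested. Among genes called higher, Kctd10, Cul3, Klhl2, Klhl15, Klhl20, Klhl23 and Klhl36 also had a GC box, while Cul5, Cul9 and Klhl35 had none. Among genes called lower, Kctd2, Klhl3 and Klhl28 had none. Windows of the 250 bases before a start were found for 39 of the 49 genes with a value. A GC box occurred in 12 of 13 Kctd genes (92.3%), 14 of 19 Klhl genes (73.7%) and 4 of 7 cullin genes (57.1%), beside 35.4% of the 27025 genes in the promoter table. The 2 sides are unlike, since the members had at least 60 counts and the other genes were not filtered by level. The 39 members had 53 windows and the 27025 genes 32851, and a match in any window counts. The shares therefore do not show that the families are special. The median GC content was 62% in the windows of these genes and 52.4% in all windows. The E-box was found in 4 of the 39 genes, none of them Kctd, the CCAAT box in 12, the TATA box in 4 and the cyclic AMP element in 1, beside 6.86%, 37.5%, 14.3% and 1.77% of all genes. A match describes the letters of these windows and is not a binding site. Matches of 1 motif may overlap each other, and a gene with several windows counts once.

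Of the Kctd genes, those whose protein products act on the RHOA GTPase moved in opposite directions. In human cells KCTD10, KCTD13 and TNFAIP1 are related Cul3 adaptors known for the turnover of RHOA. Kctd13 had 18.0, 19.0 and 17.7 CPM in the CSC libraries, against 45.4, 42.3 and 40.6 CPM in the non-CSC libraries. Every CSC library lay below every non-CSC library, and the gene fell by 1.23 ± 0.056 (SE) on the log2 scale (adjusted p = 5.65e-15). Kctd13 shares 199 exon bases with Gm21984 on the same strand, and 9.22% of its 50-base words also occur in that transcript. Kctd10, the most abundant Kctd gene per length, had 251, 259 and 263 CPM in CSC, against 201, 197 and 188 CPM in non-CSC. It rose by 0.40 ± 0.037 on the log2 scale (adjusted p = 1.54e-09), again with groups that do not overlap. Per kilobase of exon, the ratio of Kctd13 to Kctd10 was 0.115 ± 0.0053 in CSC and 0.356 ± 0.010 in non-CSC (SD, n = 3 each). Tnfaip1, the third gene of this group, averaged 220.2 ± 3.4 CPM in CSC and 194 ± 3.0 CPM in non-CSC (SD, n = 3 each) and rose by 0.19 on the log2 scale (adjusted p = 5.55e-05). Exons of Myo1h, on the opposite strand, cover 37.9% of the Kctd10 exon bases. Myo1h held 9108 counts in all 6 libraries and its log2 fold change was 0.31, and without a stated strand setting for the counting, reads from the shared bases cannot be told apart. Rhoa itself averaged 386 ± 6.8 CPM in CSC and 489 ± 13.7 CPM in non-CSC (SD, n = 3 each) and fell by 0.34 on the log2 scale (adjusted p = 1.24e-08).

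All 3 genes of the group known as Hedgehog antagonists fell. KCTD11, KCTD6 and KCTD21 are known in human and mouse cells to direct the histone deacetylase HDAC1 to degradation with Cul3. Kctd11 had 19.7, 19.0 and 17.4 CPM in CSC, against 36.7, 36.9 and 34.4 CPM in non-CSC, a log2 fold change of -0.95 ± 0.057 (SE, adjusted p = 9.46e-13). Kctd6 had 10.3, 9.72 and 9.41 CPM in CSC, against 16.6, 16.5 and 15.7 CPM in non-CSC, a log2 fold change of -0.73 ± 0.067 (SE, adjusted p = 1.82e-09). Kctd21, the least abundant of the 3, averaged 3.87 ± 0.24 CPM in CSC and 5.53 ± 0.62 CPM in non-CSC (SD, n = 3 each) and fell by 0.52 on the log2 scale (adjusted p = 0.000199). In each of these genes the groups do not overlap, which was a condition for naming Kctd11 and Kctd6 but not Kctd21. Their summed level was 31.0 to 33.6 CPM in CSC and 56.0 to 59.3 CPM in non-CSC. The transcript of the substrate, Hdac1, averaged 99.6 ± 5.1 CPM in CSC and 90.2 ± 0.29 CPM in non-CSC (SD, n = 3 each), and rose by 0.14 on the log2 scale (adjusted p = 0.00352).

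The group of Kctd2, Kctd5 and Kctd17 was also lower throughout. KCTD5 is known in human cells as the Cul3 adaptor for G protein beta-gamma subunits, and KCTD17 for removing trichoplein at the start of cilium formation. Kctd5 averaged 88.1 ± 4.9 CPM in CSC and 127 ± 2.8 CPM in non-CSC (SD, n = 3 each), and fell by 0.53 ± 0.041 on the log2 scale (adjusted p = 8.34e-11). Kctd17 averaged 47.0 ± 1.6 CPM in CSC and 65.8 ± 1.9 CPM in non-CSC (SD, n = 3 each) and fell by 0.49 (adjusted p = 1.54e-09). For both, all CSC libraries were below all non-CSC libraries. Kctd2 fell by 0.16 (adjusted p = 0.0359), a call that did not hold under upper-quartile scaling (-0.10, adjusted p = 0.181), library-size scaling, DESeq2 or a filter at a mean of 50 counts. It was also lost without non-CSC replicate 3 (-0.11, adjusted p = 0.178), without CSC replicate 1 (-0.15, adjusted p = 0.0877) and without CSC replicate 2 (-0.15, adjusted p = 0.0831). The ratio of Kctd17 to Kctd5 per kilobase was 0.785 ± 0.070 in CSC and 0.760 ± 0.027 in non-CSC (SD, n = 3 each), which overlap.

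Kctd12 encodes an auxiliary subunit of GABA-B receptors, as do Kctd8 and Kctd16, both of which, with Kctd12b, are at 0 counts in all 6 libraries. Kctd12 had 36.9, 35.2 and 37.8 CPM in CSC, against 58.8, 63.4 and 64.3 CPM in non-CSC. The groups stand well apart, with a log2 fold change of -0.76 ± 0.048 (SE, adjusted p = 2.15e-12), and the 30 nearest tested genes on chromosome 14 had a median of -0.24. A non-coding gene on the opposite strand, Gm26778, covers 62.8% of the Kctd12 exon bases. Of the receptor genes, Gabbr1 averaged 43.1 ± 2.7 CPM in CSC and 51.4 ± 0.70 CPM in non-CSC (SD, n = 3 each), a fall of 0.26 (adjusted p = 6.69e-05), and Gabbr2 had 11 counts in all.

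Kctd1 and Kctd15 are related proteins known to restrain AP-2 transcription factors, and KCTD15 limits neural crest formation in zebrafish. Kctd15 had 5.19, 4.63 and 5.89 CPM in CSC, against 13.7, 11.4 and 11.9 CPM in non-CSC, and fell by 1.23 ± 0.094 on the log2 scale (adjusted p = 9.17e-11). Its CSC values are less than the lowest non-CSC value in every library. Kctd1 averaged 3.43 ± 0.59 CPM in CSC and 3.23 ± 0.34 CPM in non-CSC (SD, n = 3 each), groups that overlap (adjusted p = 0.601). Tfap2a, which encodes AP-2 alpha, lay near 0.36 CPM in CSC and 0.51 CPM in non-CSC and was not called (adjusted p = 0.267).

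Kctd3, known to bind the HCN3 channel, was among the abundant members. It had 107, 102 and 107 CPM in CSC, against 168, 165 and 168 CPM in non-CSC, a log2 fold change of -0.67 ± 0.036 (SE, adjusted p = 1.26e-13) with no overlap between groups, while the median of its 30 neighbours was 0.18. Of its 50-base words, 6.36% also occur in the transcript of Gm7553. Its relative Shkbp1, under another symbol, averaged 33.6 ± 1.2 CPM in CSC and 28.2 ± 1.2 CPM in non-CSC (SD, n = 3 each) and rose by 0.25 (adjusted p = 0.00017). Kctd7, whose human gene is mutated in a progressive myoclonic epilepsy, averaged 14.5 ± 1.3 CPM in CSC and 21.8 ± 1.2 CPM in non-CSC (SD, n = 3 each) and fell by 0.58 with groups that do not overlap (adjusted p = 8.1e-08). Kctd18 fell by 0.43, with 18.9% of its exon bases shared with Sgo2a on the opposite strand, a gene of 15201 counts and a log2 fold change of 0.44.

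At low levels, Kctd4 and Kctd14 gave the widest differences of the family. Kctd4 had 0.436, 0.707 and 0.552 CPM in CSC (12, 20 and 16 counts), against 2.17, 1.61 and 1.95 CPM in non-CSC, a log2 fold change of -1.74 ± 0.21 (SE, adjusted p = 1.51e-07). The 30 nearest tested genes of Kctd4 on chromosome 14 had a median of -0.29, and 23 of them lay below 0. Kctd14 had 2.65, 2.51 and 2.83 CPM in CSC, against 0.606, 0.548 and 0.566 CPM in non-CSC (19, 19 and 20 counts), a log2 fold change of 2.21 ± 0.17 (SE, adjusted p = 1.05e-10). Kctd14 and Kctd21 lie near each other on chromosome 7 (starts at 97436380 and 97332308, GRCm38.p6) and went in opposite directions. Kctd9 and Kctd20 were not called. Kctd9 averaged 56.3 ± 0.54 CPM in CSC and 55.4 ± 3.1 CPM in non-CSC, and Kctd20 94.6 ± 3.3 CPM in CSC and 93.6 ± 0.54 CPM in non-CSC (SD, n = 3 each).

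**Figure D2:**
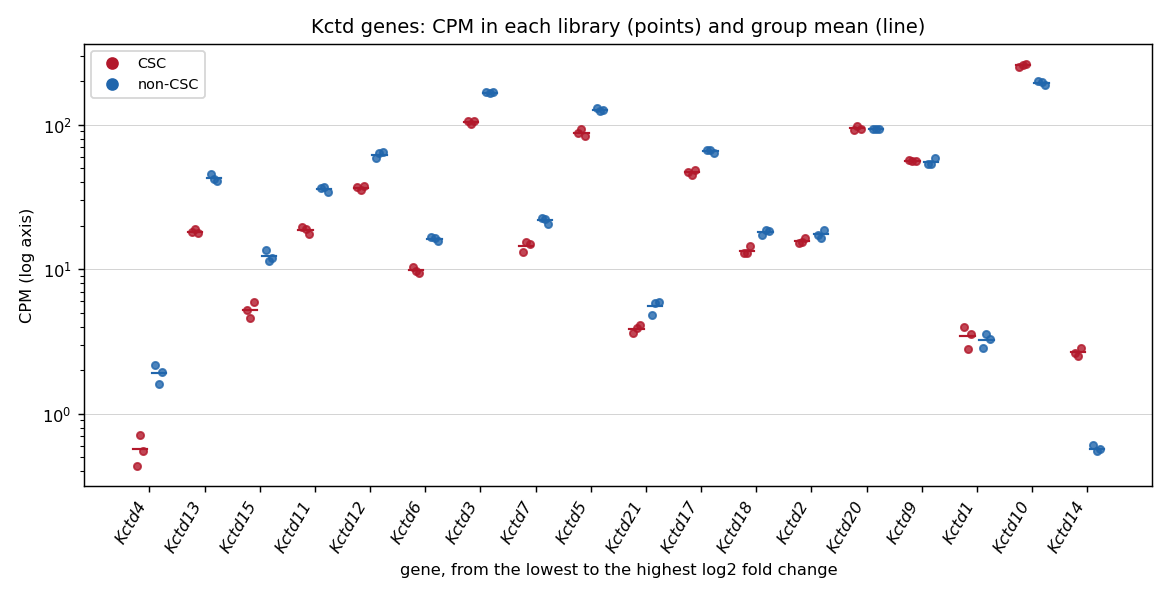
CPM on a log axis of the 18 Kctd genes with a value, ordered on the x axis by log2 fold change, with 1 point per library (CSC red, left; non-CSC blue, right) and a line at the group mean. Kctd13 sits between 17.7 and 19.0 CPM in CSC, below all non-CSC points. Kctd10 has CSC points that all lie above its non-CSC points.

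Among the Klhl genes, Klhl30 had the widest difference between the groups. It had 68.0, 68.6 and 65.5 CPM in CSC, against 6.79, 7.21 and 6.34 CPM in non-CSC. The log2 fold change was 3.31 ± 0.058 (SE, adjusted p = 1.33e-22), a 9.94-fold difference. The gene lies on chromosome 1 at 91351073 to 91362404 (GRCm38.p6). The 30 nearest tested genes had a median log2 fold change of 0.60, from -0.50 to 2.45, and 5 of them lay below 0, so Klhl30 was above the whole range of its neighbours. Per kilobase of exon Klhl30 had 21.8 ± 0.53 CPM in CSC and 2.19 ± 0.14 CPM in non-CSC (SD, n = 3 each). In CSC this was within the spread of Klhl21, at 21.2 ± 0.69 CPM per kilobase (SD, n = 3).

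Klhl24 encodes a Cul3 adaptor known for the turnover of keratin 14 in human skin. It had 49.1, 51.0 and 49.6 CPM in CSC, against 22.7, 26.0 and 26.2 CPM in non-CSC, and rose by 1.00 ± 0.054 on the log2 scale (adjusted p = 1.27e-13). CSC libraries lay above non-CSC libraries without overlap, and the neighbours had a median of 0.13. The transcript of the substrate, Krt14, averaged 259 ± 6.1 CPM in CSC and 224 ± 1.1 CPM in non-CSC (SD, n = 3 each) and rose by 0.21 (adjusted p = 1.22e-05). Klhl23 had 34.5, 36.3 and 35.5 CPM in CSC, against 23.8, 24.3 and 23.8 CPM in non-CSC, a rise of 0.56 ± 0.050 (SE, adjusted p = 8.88e-10).

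Smaller rises were called for Klhl42, Klhl15, Klhl2 and Klhl20. KLHL42 is known in human cells to mark the microtubule-severing protein katanin, and Klhl42 averaged 87.0 ± 0.86 CPM in CSC and 69.3 ± 1.7 CPM in non-CSC (SD, n = 3 each), a rise of 0.33 (adjusted p = 1.22e-07). The katanin gene Katna1 fell by 0.43 (adjusted p = 9.7e-08). Values of Katna1 and the other substrate genes here are RNA levels, and a link with the adaptors was not tested. Klhl15, whose human product targets the DNA end-resection factor CtIP, averaged 9.48 ± 0.80 CPM in CSC and 7.56 ± 0.63 CPM in non-CSC (SD, n = 3 each), a rise of 0.33 (adjusted p = 0.00188), and Rbbp8, which encodes CtIP, fell by 0.11 (adjusted p = 0.0452). In both genes the groups do not overlap. Klhl20, known in human cells for the turnover of DAPK1 and ULK1, rose by 0.20 (adjusted p = 0.00354) while the median of its neighbours was 0.35. Without non-CSC replicate 3 its log2 fold change was 0.13 (adjusted p = 0.0503). Dapk1 had 20.2 ± 0.66 CPM in CSC and 35.1 ± 1.0 CPM in non-CSC (SD, n = 3 each) and fell by 0.80 (adjusted p = 5.42e-12), and Ulk1 was not called (adjusted p = 0.263).

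Klhl2 and Klhl3 are close relatives that direct WNK kinases to Cul3, and human KLHL3 mutations cause a familial hypertension. Klhl2 had 38.1, 40.0 and 39.8 CPM in CSC, against 31.3, 32.2 and 32.4 CPM in non-CSC, and rose by 0.30 ± 0.048 (adjusted p = 8.52e-06). Klhl3 had 0.254, 0.672 and 0.586 CPM in CSC, against 1.08, 0.865 and 1.81 CPM in non-CSC, and fell by 1.31 ± 0.34 (adjusted p = 0.0036) on 7 to 64 counts per library. The groups of both genes do not overlap, though those of Klhl3 come close. Klhl3 passed the low-count filter in all 3 non-CSC libraries and in 2 of the CSC libraries. Of the WNK genes on the substrate list, Wnk4 averaged 7.97 ± 0.65 CPM in CSC and 4.18 ± 0.18 CPM in non-CSC (SD, n = 3 each), a rise of 0.93 (adjusted p = 7.97e-09), and Wnk1, at 1068 ± 42.1 CPM in CSC and 1150.0 ± 15.8 CPM in non-CSC (SD, n = 3 each), fell by 0.11 (adjusted p = 0.0105).

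Klhl17 and Klhl28 had the largest falls among Klhl genes of at least 5 CPM. Klhl17, known in rat brain as an actin-binding protein that targets a kainate receptor subunit, had 8.53, 8.59 and 9.996 CPM in CSC, against 17.8, 15.1 and 15.8 CPM in non-CSC, a log2 fold change of -0.84 ± 0.079 (SE, adjusted p = 2.82e-09). Klhl28 had 7.62, 9.72 and 9.24 CPM in CSC, against 15.6, 15.7 and 15.5 CPM in non-CSC, a log2 fold change of -0.81 ± 0.077 (SE, adjusted p = 2.76e-09). Both genes show a clear gap between the groups. The neighbours of Klhl28 on chromosome 12 had a median of -0.27, and those of Klhl17 on chromosome 4 a median of 0.09. Klhl17 was not matched to the transcripts used for length and overlap, so neither was checked for it.

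The other falls were narrower. Klhl8, whose worm relative acts on the synaptic protein rapsyn, fell by 0.36, Klhl5 by 0.33, Klhl26 by 0.25 and Klhl25 by 0.22. The adjusted p lay between 1.83e-06 for Klhl5 and 0.00374 for Klhl8. In these 4 genes the groups do not overlap, which was a condition for naming them. KLHL25 is known in human cells to remove the translation repressor 4E-BP1. Eif4ebp1, which encodes it, averaged 134 ± 4.2 CPM in CSC and 297 ± 9.8 CPM in non-CSC (SD, n = 3 each) and fell by 1.15 (adjusted p = 1.2e-17).

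Of the Klhl genes known for acting on mitotic kinases, those with a value had small log2 fold changes. KLHL9, KLHL13 and KLHL21 direct Aurora B in dividing human cells, KLHL18 acts on Aurora A and KLHL22 on PLK1. Klhl9 had 73.1 to 74.5 CPM in CSC and 71.2 to 73.3 CPM in non-CSC (adjusted p = 0.542), and Klhl13 held 4 counts in all. Klhl18 averaged 14.8 ± 1.1 CPM in CSC and 14.5 ± 0.35 CPM in non-CSC (SD, n = 3 each), with groups that overlap (adjusted p = 0.673). Klhl21 fell by 0.12 (adjusted p = 0.00853), which did not pass under upper-quartile scaling (adjusted p = 0.153) or library-size scaling (-0.06). Klhl22 was not called (log2 fold change 0.09, adjusted p = 0.0566), but was with upper-quartile scaling (0.15, adjusted p = 0.00295), with library-size scaling, with a filter at a mean of 50 counts, without non-CSC replicate 1 (0.11, adjusted p = 0.0343) and without CSC replicate 1 (0.11, adjusted p = 0.0459). Klhl9 was called with library-size scaling alone (0.09, adjusted p = 0.042). Transcripts of the kinases were lower for Aurkb, by 0.34 (adjusted p = 3.6e-07), and Aurka, by 0.31 (adjusted p = 8.06e-08), while Plk1 was not called (adjusted p = 0.146).

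Klhl12, which guides the coat protein SEC31A and the Wnt mediator Dishevelled in human cells, had 34.0 to 35.2 CPM in CSC and 33.1 to 34.8 CPM in non-CSC (adjusted p = 0.766). Klhl11 had 34.1 to 36.3 CPM in CSC and 34.3 to 35.8 CPM in non-CSC (adjusted p = 0.64). Its neighbour on chromosome 11, Klhl10, is known for sperm maturation and was the member just inside the threshold on counts, with 75 counts in all, 0.653, 0.247 and 0.310 CPM in CSC and 0.382, 0.432 and 0.396 CPM in non-CSC. It reached the level of the low-count filter in 1 CSC library and all 3 non-CSC libraries. Klhl36 averaged 1.37 ± 0.32 CPM in CSC and 0.602 ± 0.073 CPM in non-CSC (SD, n = 3 each) and rose by 1.19 (adjusted p = 6.69e-05), with groups apart. Klhl35 rose by 0.45 (adjusted p = 0.0386) at 1.65 ± 0.11 CPM in CSC and 1.21 ± 0.32 CPM in non-CSC (SD, n = 3 each). The call of Klhl35 was lost with DESeq2, without non-CSC replicate 3 (0.24, adjusted p = 0.279), and without CSC replicates 1, 2 or 3 (adjusted p = 0.128, 0.051 and 0.0679).

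**Figure D3:**
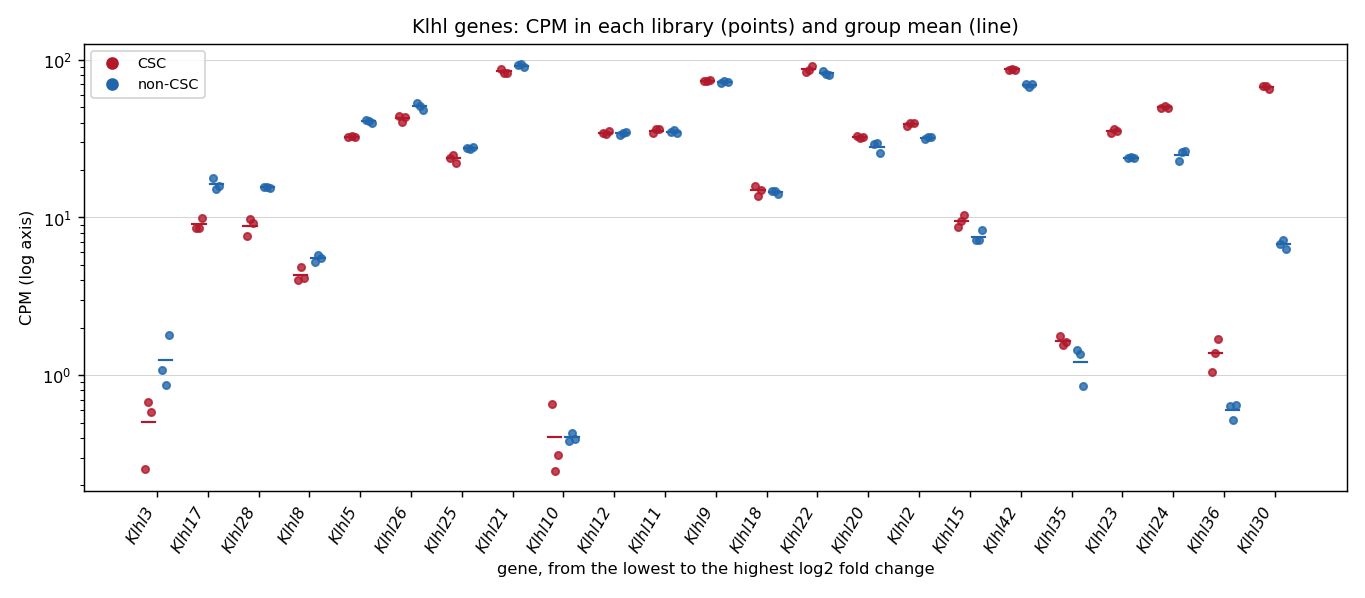
CPM on a log axis of the 23 Klhl genes with a value, ordered on the x axis by log2 fold change, with 1 point per library (CSC red, left; non-CSC blue, right) and a line at the group mean. Klhl30, at the right end, has CSC points between 65.5 and 68.6 CPM and non-CSC points between 6.34 and 7.21 CPM, while most abundant Klhl genes have nearby groups.

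The 18 members under 60 counts were 4 Kctd and 14 Klhl genes. At 0 counts in all libraries were Kctd8, Kctd12b, Kctd16, Klhl4, Klhl34 and Klhl40. Klhl1, Klhl6, Klhl7 and Klhl31 held 1 count each in the 6 libraries together, too few to compare at this depth. Klhl7 is known from human retinitis pigmentosa, Klhl6 from B cells and Klhl31, Klhl40 and Klhl41 from muscle. Klhl32 lay just outside the threshold with 38 counts, 8, 6 and 14 in CSC and 3, 5 and 2 in non-CSC. Kctd19, known from meiosis in the mouse testis, had 10 counts and Klhl41 had 31.

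Of the cullins, Cul4b rose and Cul7 fell by the largest amounts among those above 1 CPM in both groups. Cul4a and Cul4b are paralogous scaffolds that share the adaptor DDB1, and Cul4b lies on the X chromosome. Cul4b had 83.9, 88.1 and 90.9 CPM in CSC, against 52.9, 54.9 and 55.1 CPM in non-CSC, and rose by 0.69 ± 0.042 on the log2 scale (adjusted p = 1.36e-12). Cul4a had 151, 161 and 155 CPM in CSC, against 178, 168 and 176 CPM in non-CSC, and fell by 0.16 ± 0.037 (adjusted p = 0.000518), while the median of its neighbours was 0.27. With library-size scaling the fall of Cul4a was 0.10 and it kept its call. Groups do not overlap in either gene. Per kilobase of exon, the ratio of Cul4b to Cul4a was 0.933 ± 0.033 in CSC and 0.516 ± 0.023 in non-CSC (SD, n = 3 each). Their summed level was 234 to 249 CPM in CSC and 223 to 231 CPM in non-CSC.

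Cul7, the scaffold mutated in human 3-M growth syndrome, had 13.5, 13.9 and 13.3 CPM in CSC, against 20.9, 22.5 and 19.8 CPM in non-CSC, a log2 fold change of -0.64 ± 0.064 (SE, adjusted p = 7.14e-09). Its relative Cul9, known to bind p53 in the cytoplasm, had 0.835, 1.06 and 1.17 CPM in CSC (23 to 34 counts), against 0.606, 0.519 and 0.509 CPM in non-CSC (18 or 19 counts), a log2 fold change of 0.91 ± 0.23 (SE, adjusted p = 0.0015). The 2 genes moved in opposite directions and lie close together on chromosome 17 (starts at 46650338 and 46500609), and the median of the neighbours was -0.27 and -0.28. Fbxw8, which encodes the F-box partner of Cul7, averaged 241 ± 1.9 CPM in CSC and 293 ± 1.3 CPM in non-CSC (SD, n = 3 each) and fell by 0.28 (adjusted p = 1.06e-07). The 3-M partner gene Obsl1 lay below 1 CPM in both groups and rose by 1.67 (adjusted p = 4.76e-05), and Ccdc8 held 10 counts.

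Cul3, the scaffold of the Klhl proteins and many Kctd proteins, had 139, 135 and 144 CPM in CSC, against 117, 123 and 131 CPM in non-CSC. It rose by 0.17 ± 0.041 (adjusted p = 0.001), a small difference with groups that do not overlap. Cul1, the scaffold of F-box ligases, had 132, 130.2 and 126 CPM in CSC, against 139.7, 139 and 147 CPM in non-CSC, and fell by 0.14 ± 0.037 (adjusted p = 0.00242). This call was lost with upper-quartile scaling (-0.08, adjusted p = 0.0647) and library-size scaling (-0.07, adjusted p = 0.0981). Cul2, the scaffold of the von Hippel-Lindau ligase, had 31.8, 36.1 and 35.1 CPM in CSC, against 40.3, 39.3 and 42.9 CPM in non-CSC, a fall of 0.25 ± 0.053 (SE, adjusted p = 0.000268). Cul5, which works with SOCS-box proteins, had 43.3, 48.3 and 45.2 CPM in CSC, against 41.6, 40.3 and 44.0 CPM in non-CSC, and the groups overlap. Its rise of 0.12 ± 0.050 (adjusted p = 0.0402) was lost with RLE scaling, DESeq2 and no low-count filter. Leaving out CSC replicate 2 gave 0.07 (adjusted p = 0.259), CSC replicate 3 gave 0.12 (adjusted p = 0.0733), non-CSC replicate 1 gave 0.10 (adjusted p = 0.106) and non-CSC replicate 2 gave 0.09 (adjusted p = 0.195).

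In level per kilobase of exon, the cullin order in CSC was Cul1 (32.0 CPM), Cul3 (28.5), Cul4a (24.3), Cul4b (22.6), Cul2 (8.14), Cul5 (5.59), Cul7 (1.83) and Cul9 (0.084). In non-CSC it was Cul1 (35.2 CPM), Cul4a (27.2), Cul3 (25.4), Cul4b (14.0), Cul2 (9.68), Cul5 (5.14), Cul7 (2.85) and Cul9 (0.045). Cul4b lay below Cul4a in every library of both groups, with a ratio per kilobase of 0.922, 0.908 and 0.970 in CSC and 0.493, 0.539 and 0.517 in non-CSC.

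**Figure D4:**
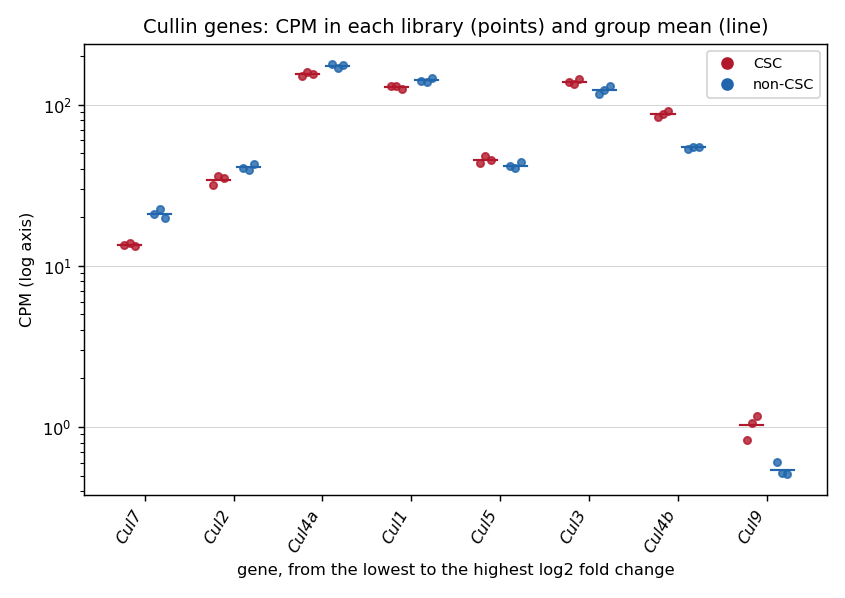
CPM on a log axis of the 8 cullin genes, ordered on the x axis by log2 fold change, with 1 point per library (CSC red, left; non-CSC blue, right) and a line at the group mean. Cul4b has CSC points of 83.9 to 90.9 CPM above non-CSC points of 52.9 to 55.1 CPM, and Cul7 has CSC points of 13.3 to 13.9 CPM below non-CSC points of 19.8 to 22.5 CPM.

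Genes elsewhere in the same ligase system were taken from 7 lists of 117 entries. Of 10 tested Klhl relatives under other symbols, 5 were higher and 4 lower. Kbtbd7 had the largest fall, with 6.58 ± 0.48 CPM in CSC and 21.2 ± 1.3 CPM in non-CSC (SD, n = 3 each), for a log2 fold change of -1.69 (adjusted p = 3.02e-15). Enc1 fell by 0.37, and Kbtbd4 rose by 0.48. Keap1, the adaptor that keeps NRF2 low, rose by 0.15 (adjusted p = 0.00306), and Nfe2l2, which encodes NRF2, averaged 198 ± 1.1 CPM in CSC and 134 ± 3.7 CPM in non-CSC (SD, n = 3 each), a rise of 0.56 (adjusted p = 2.53e-12). Of 13 other BTB adaptors of Cul3, 4 were higher and 6 lower. Abtb2 fell by 1.74 and Btbd2 by 1.00, while Btbd3 rose by 1.23 and Abtb1 by 0.88 on the log2 scale. Of the 2 tested Kctd relatives, Tnfaip1 and Shkbp1, both rose.

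Of 20 genes of neddylation and the cullin RING cores, 7 were higher and 8 lower. Nedd8 averaged 48.0 ± 1.8 CPM in CSC and 68.0 ± 8.1 CPM in non-CSC (SD, n = 3 each), a fall of 0.50 (adjusted p = 9.06e-05). The enzyme gene Ube2m, which serves RBX1 and the cullins other than Cul5, fell by 0.44, and the other NEDD8-conjugating enzyme gene, Ube2f, which serves Cul5, had 72.2 ± 1.5 CPM in CSC and 44.2 ± 2.4 CPM in non-CSC (SD, n = 3 each), a rise of 0.71 (adjusted p = 3.49e-12). Rnf7, the RING partner of Cul5, rose by 0.51, Rbx1 by 0.21 with groups that overlap, and Dcun1d4 by 1.12. Of 11 genes of the COP9 signalosome and deneddylation, 4 were higher and 4 lower. The catalytic subunit gene Cops5 rose by 0.38 and Cops9 by 0.52, while Cops6 fell by 0.56 and the NEDD8 protease gene Senp8 by 0.68 on the log2 scale.

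Of 25 tested adaptors and receptors of the other cullins, 11 were higher and 10 lower. Socs2, a Cul5 receptor for growth hormone signalling, had the largest change, with 2.84 ± 0.32 CPM in CSC and 14.5 ± 0.68 CPM in non-CSC (SD, n = 3 each), for a log2 fold change of -2.35 (adjusted p = 3.82e-16). The F-box genes Btrc and Skp2 fell by 0.49 and 0.47 and Det1 by 0.44, while Vhl, the Cul2 receptor of hypoxia factors, rose by 0.40. Ddb1, the most abundant gene of the list, averaged 1208 ± 35.4 CPM in CSC and 1406 ± 37.5 CPM in non-CSC (SD, n = 3 each) and fell by 0.22. Of 28 tested substrates and partners, 8 were higher and 14 lower. Those set beside a member above were picked after their values were seen and are not the full list. Entries left out there include Ccne1, Sec31a and Acly, which rose by 0.77, 0.27 and 0.16 on the log2 scale. They also include Dvl2, Depdc5, Cdt1 and Gnb1, which fell by 0.43, 0.23, 0.21 and 0.13, and Tchp, Dvl1 and Dvl3, which were not called. Cdkn1a, the cell cycle inhibitor p21, averaged 273 ± 7.6 CPM in CSC and 148 ± 6.6 CPM in non-CSC (SD, n = 3 each) and rose by 0.89, while Cdkn1b, which encodes p27, a substrate of the Cul1 ligase with SKP2, fell by 0.74. Shares of higher and lower genes in these lists lay on both sides of the 33.4% and 33.1% of all genes tested.

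Positions on the chromosomes were set beside each member through its 30 nearest tested genes. The median of the neighbours ranged from -0.29 to 0.60 over the 49 members. Kctd genes lay below that median in 15 of 18 cases, Klhl genes in 14 of 23 and cullin genes in 3 of 8. The median difference between a gene and its neighbours was -0.54 for Kctd genes, -0.06 for Klhl genes and 0.05 for cullin genes. Over the 49 members, the log2 fold change and the median of the neighbours had a Pearson correlation of 0.42. By family it was 0.35 for Kctd, 0.56 for Klhl and 0.01 for cullin genes. Klhl30 holds the highest value on both sides (3.31 and 0.60), so 0.42 and 0.56 may rest largely on this gene, which was not tested. The correlations are given as a description, since all values come from the same 6 libraries and some members share neighbours. The part of the regions in the members' values was not tested.

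**Figure D5:**
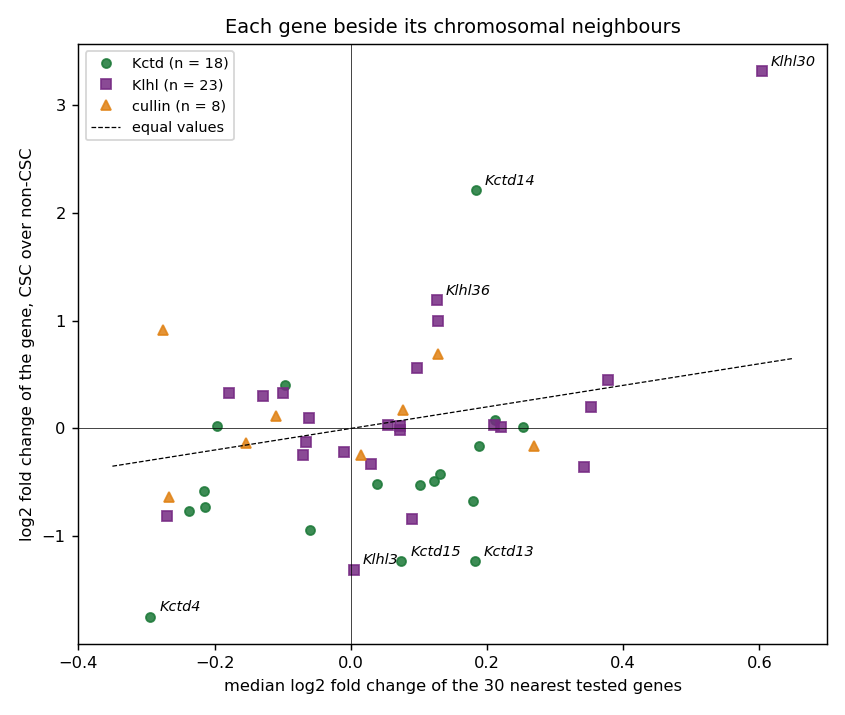
Log2 fold change of each of the 49 genes (y axis, CSC over non-CSC) against the median log2 fold change of its 30 nearest tested genes on the chromosome (x axis), with Kctd genes as circles, Klhl genes as squares, cullin genes as triangles and a dashed line where both are equal. The 15 Kctd genes under the line include Kctd13 and Kctd15, and Klhl30 stands at the top right with 3.31 beside a neighbour median of 0.60.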

How the data were processed

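RNA from 3 CSC and 3 non-CSC libraries of EO771 cells was sequenced, with the libraries made by the NEB Ultra II kit, per the labels' protocols. The authors deposited 1 table of read counts per gene symbol, not normalized, and per the submitters' processing notes reads were placed on GRCm38. The sources used here name no aligner, counter, annotation or strand setting. Library totals were 27099879 to 35971131 counts.

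From the counts, edgeR 4.0.16 (R 4.3.3) tested 17630 genes that passed filterByExpr (minimum count 10), with TMM scaling, a robust quasi-likelihood fit and Benjamini-Hochberg adjustment over all of them. CPM used TMM library sizes, and per-kilobase values the exon union of GENCODE M21. The standard error is the log2 fold change divided by the square root of F. Positions and promoters came from RefSeq GRCm38.p6. The fit was tested on simulated data in which few genes changed, equally in both directions. Unlike the real data, these cannot check the choice of scaling.

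The members and lists were chosen with earlier results of these data known. Named were all cullins, up to 6 Kctd and 6 Klhl genes per direction with the largest called change, at least 5 CPM and no overlap of groups, and up to 4 genes per list, of which 1 is not reported here. Other genes, among them substrates set beside a member, were named after their values were seen. Alternatives were DESeq2 1.42.0, limma-voom (limma 3.58.1), 3 other scalings, 2 other filters, a replicate block and leaving out each library.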

Additional observations from a re-analysis of the deposited data

How the results depend on the processing

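Of 14 alternatives, the count of Kctd genes called higher in CSC moved by over 1.5 times in 1, to 1 among the 16 Kctd genes left by a filter at a mean of 50 counts. No log2 fold change of the 49 members changed sign past the threshold. The call changed in some alternative for 8 members (Cul1, Cul5, Kctd2, Klhl9, Klhl20, Klhl21, Klhl22 and Klhl35) and in none of those run for 41, and the cause was not tested. The filter at a mean of 50 counts left Cul9, Kctd4, Kctd14, Klhl3, Klhl10, Klhl35 and Klhl36 untested, and the other alternatives tested all 49. Leaving out 1 library gave 2 Kctd genes higher each time and 12 to 13 lower, 7 to 10 Klhl genes higher and 8 lower, and 3 to 4 cullin genes higher and 4 lower. Over all genes it gave 5571 to 5711 higher and 5596 to 5867 lower. Library-size scaling moved the split over all genes to 6781 higher and 4970 lower, and upper-quartile scaling to 6700 and 5066. Libraries with the same number did not deviate together (correlations of -0.026 to -0.011, and 0 of 6 libraries correlated best with their own number). With the replicate block, 5868 genes were higher and 5812 lower, and the family counts were 2 and 13 for Kctd, 9 and 8 for Klhl, and 4 and 4 for cullin genes. Depth limits the members under about 1 CPM, whose values rest on few counts.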
